A study of Mus musculus with 12 samples.

Results

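Glutathione, the main soluble thiol of the cell, was followed here through 10 genes of its import, synthesis, reduction, use and breakdown. They were Slc7a11, Gclc, Gclm, Gss, Gsr, Gpx1, Gpx3, Gpx4, Ggt1 and Chac1. The genes were chosen by symbol, and each symbol was found in both deposited tables, which held 50433 genes for renal tubular epithelial cells (TECs) and 50434 genes for neutrophils (PMN). Expression filtering left 14734 genes in TECs, with all 10 members among them, and 10130 genes in PMN, with 9 members among them. Chac1 was the member that did not pass in PMN.

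RNA was sequenced from wildtype mice 24 hours after renal ischemia-reperfusion injury (IRI), which was set by clamping the renal pedicles. All groups shared the injury, so that glutamine was compared with vehicle within injured animals only. The study's methods name male C57BL/6J mice 8 to 12 weeks old, glutamine given intravenously as an alanyl-glutamine dipeptide, and saline as the vehicle. The study's text gives more than one time of dosing after reperfusion and the labels give none, so the interval from dose to sampling is uncertain. The 4 groups were TECs with glutamine, TECs with vehicle, PMN with glutamine and PMN with vehicle, each with 3 libraries. TECs were sorted from kidney as CD45- Prominin-1+ cells, and PMN came from peripheral blood.

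Glutathione is made from glutamate, cysteine and glycine, and glutamine is a precursor of the glutamate. Glutamate cysteine ligase joins glutamate to cysteine and sets the pace of synthesis, glutathione synthetase adds glycine, and glutathione reductase returns the oxidised disulfide to the thiol form at the expense of NADPH. Glutathione peroxidases spend the thiol to reduce hydrogen peroxide and lipid peroxides, and the proximal tubule is a site of high glutathione turnover because its brush border carries the enzyme that splits extracellular glutathione.

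The peroxidases Gpx1, Gpx3 and Gpx4 are selenoproteins, in which a TGA codon that elsewhere ends translation is read as selenocysteine at the catalytic site. That codon is shown in capitals within windows of 45 bases from GENCODE M21 on GRCm38, plus strand, because it is what these enzymes share and because the Gpx4 window recurs in a copy that matters for the values below. The codon lies at chr9:108339451-108339453 in exon 1 of 2 of Gpx1, at chr11:54907256-54907258 in exon 2 of 5 of Gpx3, and at chr10:80054737-80054739 in exon 3 of 7 of Gpx4. In Gpx4-ps2, a transcribed processed pseudogene, the matching bases lie at chr10:45875468-45875470.
Gpx1: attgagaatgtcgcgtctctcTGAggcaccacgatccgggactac
Gpx3: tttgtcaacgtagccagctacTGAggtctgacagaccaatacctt
Gpx4: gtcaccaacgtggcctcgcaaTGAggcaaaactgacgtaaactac
Gpx4-ps2: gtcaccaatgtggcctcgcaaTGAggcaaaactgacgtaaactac
The Gpx4-ps2 window differs from that of Gpx4 at 1 base. Over the aligned stretch, 760 of 762 bases were identical between the Gpx4 and Gpx4-ps2 transcripts, and 83.9% of all runs of 50 bases in Gpx4-ps2, the length of the reads, also occurred in Gpx4. Of the runs of 50 bases in all Gpx4 transcripts, 34.7% occurred in Gpx4-ps2.

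The promoters of 3 members are shown for 2 motif cores, spelled TGACNNNGC (the core of the antioxidant response element) and TGATGNAA (the core of the amino acid response element bound by ATF4), searched on both strands from 250 bases before to 50 bases after the RefSeq start on GRCm38.p6. The matches are in capitals, with 25 bases on each side, and each sequence runs 5′ to 3′ on the gene's own strand.
Gclm, chr3:122245398-122245456, plus strand: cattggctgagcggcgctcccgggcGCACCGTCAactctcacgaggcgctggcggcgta
Slc7a11, chr3:50443628-50443704, minus strand: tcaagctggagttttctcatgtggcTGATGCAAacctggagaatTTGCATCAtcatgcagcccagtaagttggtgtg
Chac1, chr2:119351024-119351081, plus strand: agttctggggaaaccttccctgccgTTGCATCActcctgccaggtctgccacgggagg
The Gclm match to TGACNNNGC began 134 bases before the start. The Slc7a11 matches to TGATGNAA began 66 and 47 bases before it, and the Chac1 match began 193 bases before it. Of 32851 promoters of the same length, 12.4% held TGACNNNGC and 4.0% held TGATGNAA, so that a match describes the letters of a window and no more. Promoters of 8 members were matched by symbol, and those of Gclc and Gsr were not among them. Ggt1 had 4 promoters listed, 3 of them with TGACNNNGC, and the other members matched held neither core.

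Values are CPM, that is counts scaled to a common library size, made from the authors' estimated counts after TMM scaling, and fold changes are log2 differences of glutamine minus vehicle fitted by quasi-likelihood in edgeR, with their standard errors (SE) and with p-values adjusted after Benjamini and Hochberg over all genes tested in that cell type. TEC libraries held 5397370 to 10223461 counts, the shallowest being glutamine replicate 2, and PMN libraries held 20225246 to 21878446. The TEC libraries expressed the proximal tubule genes Slc34a1 and Lrp2, and the sort marker Prom1 had 64.6 to 76.5 CPM with vehicle and 75.0 to 83.5 CPM with glutamine. Ptprc, which encodes CD45, had 0.102 to 1.52 CPM with vehicle and 1.81 to 2.74 CPM with glutamine. Prom1 alone overlapped between the groups. The sum of both markers lay apart, at 66.1 to 76.6 and 77.7 to 85.8 CPM. That sum adds a marker the sort selected to a marker it excluded, so it gives no measure of purity. The 8 monocyte and macrophage markers overlapped in TECs, with sums of 28.4 to 53.1 CPM with vehicle and 31.2 to 72.9 CPM with glutamine, and Lyz2 among them was apart, at 1.12 to 2.56 and 3.95 to 12.5 CPM. Neutrophil genes led the PMN libraries, with S100a8 between 6607 and 28925 CPM and Ly6g between 49.2 and 178 CPM. Markers of other cells were uneven. In PMN the 8 monocyte and macrophage markers summed to 5502 to 9534 CPM with vehicle and 5626 to 11478 CPM with glutamine, led by Lyz2 and C1qb. Summed markers lay apart between the PMN groups for 4 lists, 3 of them higher with glutamine. The B cell list had 0.501 to 2.65 CPM with vehicle and 20.9 to 33.4 CPM with glutamine, through Cd79b, which had 0 CPM in all vehicle libraries. The injured tubule list, led by Lcn2, which neutrophils also express, had 1096 to 1650 CPM and 1746 to 2176 CPM. Ptprc, which leads the pair of TEC sort markers when these are summed in PMN, had 317 to 569 CPM and 754 to 1151 CPM. The stromal list was lower with glutamine, through Col1a1 alone, with 9.52, 3.19 and 0.0476 CPM in vehicle replicates 1, 2 and 3, the last from 1 count, and 0 in all glutamine libraries. The 5 thick ascending limb markers summed to 1076 CPM in PMN vehicle replicate 1 and to at most 43.6 CPM in the other PMN libraries. The 5 endothelial markers summed to 1772 CPM in PMN vehicle replicate 2 and to at most 60.6 CPM in the other PMN libraries. In TECs these markers summed to 281 to 379 CPM with vehicle and 241 to 356 CPM with glutamine. In TECs the 4 erythroid genes found summed to 4395 CPM in vehicle replicate 5 and 6708 CPM in glutamine replicate 2, against 802 to 1599 CPM in the other libraries, and Hba-a1 in that list had 501 and 762 CPM in those 2 libraries and 87.8 to 197 CPM in the others. In bulk RNA, fewer cells of a type and less RNA per cell cannot be told apart.

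In TECs, the genes of glutathione synthesis and reduction had lower mean values with glutamine and the secreted and surface enzymes Gpx3 and Ggt1 had higher means. Gsr in the glutamine libraries was at 0.472 of its vehicle mean and Gclm at 0.602, whereas Ggt1 was at 1.495 times its vehicle mean, and for these 3 genes the groups did not overlap. None of the 10 members passed edgeR's quasi-likelihood test at an adjusted p-value of 0.05, and none of the 14734 genes did (0%). Below an unadjusted p-value of 0.05 lay 5 members, Gsr, Gclm and Chac1 lower and Ggt1 and Gpx3 higher, where 12.7% of all genes tested lay (5.51% lower and 7.23% higher). DESeq2 called 2 members at an adjusted p-value below 0.05, Gsr and Gclm, where it called 1.93% of the genes for which it gave an adjusted p-value (0.487% lower). The groups were apart for 2 members lower with glutamine and 1 higher, beside 9.81% and 9.01% of all genes tested. The median log2 fold change of the 10 members was -0.29, against 0.01 over all genes tested, with 6 members below 0 and 4 above.

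**Figure D1:**
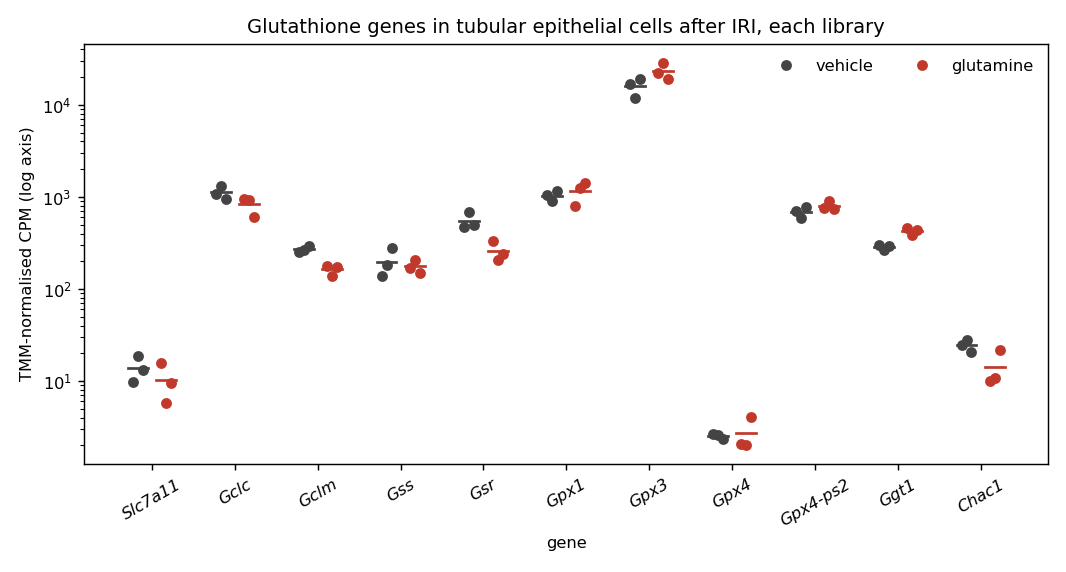
Each point is the TMM-normalised CPM, on a log axis, of a gene in 1 TEC library, with the group mean as a bar, for vehicle (grey) and glutamine (red), and Gpx4-ps2 beside Gpx4. The glutamine points of Gsr and Gclm lie below all vehicle points, those of Ggt1 lie above them, and Gpx3 stands above every other gene.

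Cystine enters the cell in exchange for glutamate through the xCT transporter, whose light chain is encoded by Slc7a11 (chr3:49892526-50443614, minus strand), the gene with the paired TGATGNAA matches shown above. It was the lowest member in TECs once length was taken into account. Its CPM was 9.77, 18.6 and 13.04 in vehicle replicates 3, 4 and 5, and 15.6, 5.83 and 9.54 in glutamine replicates 1, 2 and 3. The groups overlapped, and the log2 fold change was -0.41 (SE 0.41, adjusted p = 0.697, edgeR). It moved to -0.14 without vehicle replicate 4 or without glutamine replicate 2, and to -0.83 without glutamine replicate 1. The 29 counts behind the glutamine replicate 2 value were the fewest of any library for this gene.

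Glutamate cysteine ligase has a catalytic subunit, Gclc (chr9:77754535-77794485, plus strand), and a modifier subunit, Gclm (chr3:122245557-122270732, plus strand), which raises the enzyme's affinity for glutamate. Gclm CPM was 249.8, 265 and 295 in the vehicle libraries and 177, 138 and 173 in the glutamine libraries. Each glutamine library was below each vehicle library, with means of 270.1 ± 23.1 and 163 ± 21.3 CPM (SD, n = 3). Gclm had a log2 fold change of -0.73 (SE 0.19), with an adjusted p = 0.217 in edgeR's quasi-likelihood test and 0.0381 in DESeq2. Over 14 alternative settings the Gclm log2 fold change lay between -0.89 and -0.63 and its unadjusted p-value was below 0.05 in all 14. The 14 include the setting that summed Gpx4 with its copy, which leaves every other member practically unchanged by design. Of the runs of 50 bases in Gclm transcripts, 3.2% also occurred in Ppia, a housekeeping gene with a mean of 271 CPM in these cells, and no other member except Gpx4 shared more than 0.6% with other genes.

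Gclc was the more abundant subunit in TECs, both in CPM and per kilobase of transcript. Its CPM was 1079, 1327 and 942 with vehicle and 954, 918 and 612 with glutamine, so that glutamine replicate 1 lay just above vehicle replicate 5 and the groups overlapped. The log2 fold change was -0.43 (SE 0.23, adjusted p = 0.455, edgeR), and it was -0.26 without glutamine replicate 3. Gss (chr2:155563181-155592810, minus strand), which encodes glutathione synthetase, had 137, 180 and 277 CPM with vehicle and 168, 209 and 150.2 CPM with glutamine. Its groups overlapped fully, at a log2 fold change of -0.17 (SE 0.27, adjusted p = 0.820, edgeR), and without vehicle replicate 5 the sign turned to 0.15.

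Gsr (chr8:33652523-33698163, plus strand) encodes glutathione reductase, the enzyme that regenerates the thiol. In the vehicle libraries Gsr had 469, 693 and 493 CPM, and in the glutamine libraries it had 330.4, 208 and 242 CPM. Every glutamine library was below every vehicle library, with means of 552 ± 123 and 260.1 ± 63.2 CPM (SD, n = 3). The log2 fold change was -1.08, with a 95% interval from -1.61 to -0.55, the furthest from 0 among the members. The adjusted p-value was 0.178 in edgeR's quasi-likelihood test and 0.00229 in DESeq2. With no expression filter the edgeR call passed, in a fit that called 425 of 29116 genes where the main fit called 0 of 14734. In all 14 alternatives the Gsr log2 fold change lay between -1.29 and -0.89 with an unadjusted p-value below 0.05. Of 5 injured tubule markers, 3 were lower with glutamine, and Havcr1, the kidney injury molecule KIM-1, named here after its values were seen, had 793, 541 and 106 CPM with vehicle and 94.1, 49.4 and 26.2 CPM with glutamine. Its groups were apart, at a log2 fold change of -3.08 (SE 0.65, adjusted p = 0.178 in edgeR and 0.0369 in DESeq2), while the summed list overlapped at 2202 to 5021 CPM and 2348 to 2745 CPM. The part of tubule injury in the Gsr and Gclm values was not tested.

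Gpx3 (chr11:54902453-54910377, plus strand), the secreted peroxidase of plasma that is made mainly in the renal tubule, was the most abundant member in every TEC library. It had 16833, 11966 and 19238 CPM with vehicle and 22186, 28440 and 19059 CPM with glutamine. The means were 16012 ± 3705 and 23228 ± 4777 CPM (SD, n = 3), and the groups overlapped because vehicle replicate 5 exceeded glutamine replicate 3. Its fitted log2 fold change was 0.54 (SE 0.24, adjusted p = 0.392, edgeR). This value rested on single libraries. Its unadjusted p-value stayed below 0.05 in 6 of 14 alternatives, and without vehicle replicate 4 the log2 fold change was 0.36, as it was without glutamine replicate 2. Gpx3 alone took 1.31% to 1.90% of all counts in the vehicle libraries and 1.79% to 2.62% in the glutamine libraries, which was 76.5% to 90.1% of the counts on the 10 members.

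Gpx1 (chr9:108338903-108340343, plus strand), the cytosolic peroxidase that is also abundant in red cells, had 1044, 892 and 1165 CPM with vehicle and 805, 1242 and 1407 CPM with glutamine. The glutamine libraries held both the lowest and the highest value, and the log2 fold change was 0.16 with a 95% interval from -0.36 to 0.67 (adjusted p = 0.814, edgeR). Vehicle replicate 5 and glutamine replicate 2, the libraries with the most erythroid RNA, had 1165 and 1242 CPM of Gpx1. Glutamine replicate 3, with the highest Gpx1 at 1407 CPM, had an erythroid sum of 969 CPM. The part of erythroid RNA in the Gpx1 values was not tested.

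Gpx4 (chr10:80047166-80056439, plus strand), the peroxidase that reduces lipid hydroperoxides in membranes and restrains ferroptosis, had few counts on its own row in TECs. That row held 2.66, 2.60 and 2.34 CPM with vehicle and 2.04, 2.01 and 4.06 CPM with glutamine. The row of Gpx4-ps2 (chr10:45875291-45876086), the near-identical copy whose window is printed above, held 695, 588 and 774 CPM with vehicle and 751, 905 and 742 CPM with glutamine. Of the summed CPM of both rows, 99.5% to 99.8% stood on the copy. In PMN the split was the opposite, with 4.61% to 8.78% of the sum on the copy. Reads of 50 bases that fit both genes cannot be assigned by sequence, so the rows were also summed. The sum was 698, 591 and 777 CPM with vehicle and 753, 907 and 746 CPM with glutamine, and its log2 fold change was 0.22 (SE 0.20, adjusted p = 0.667, edgeR). The groups of the sum overlapped, and glutamine replicate 2 was the highest library. Summing the rows was chosen after the data were seen.

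**Figure D2:**
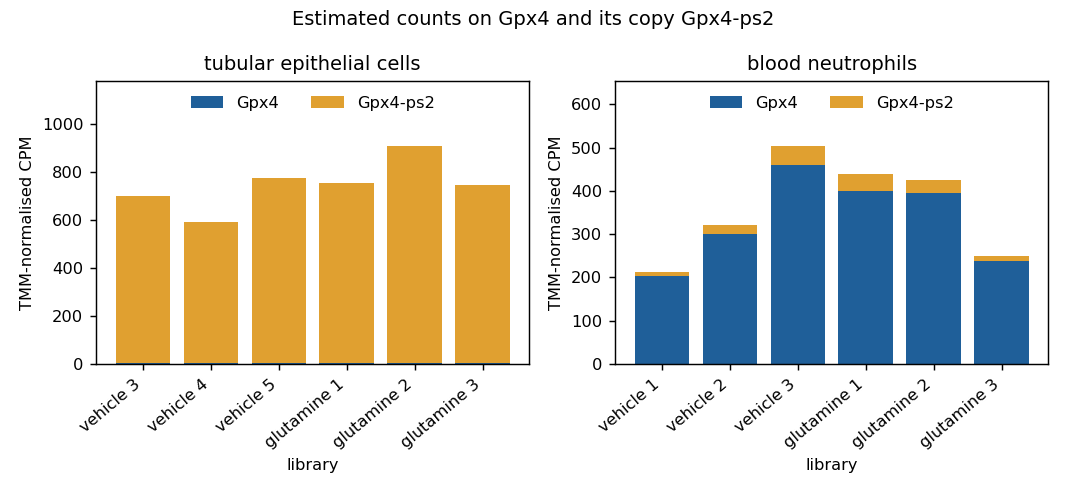
Stacked bars give the TMM-normalised CPM on Gpx4 (blue) and Gpx4-ps2 (orange) in each library, TECs on the left and PMN on the right. Nearly all of the sum stands on the copy in TECs, 99.5% to 99.8%, and most stands on Gpx4 in PMN.

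Ggt1 (chr10:75561604-75586200, plus strand) encodes gamma-glutamyltransferase, the brush border enzyme that begins the breakdown of glutathione outside the cell. Ggt1 had 302, 268 and 291 CPM with vehicle and 462, 385 and 438 CPM with glutamine. Every glutamine library was above every vehicle library, with means of 287 ± 17.3 and 429 ± 39.3 CPM (SD, n = 3). The log2 fold change was 0.58 (SE 0.18, adjusted p = 0.252 in edgeR's quasi-likelihood test and 0.0986 in DESeq2), and it lay between 0.41 and 0.65 with an unadjusted p-value below 0.05 in all 14 alternatives. Ggt1 and Gpx3 are both genes of the tubule. Of 8 proximal tubule markers, 7 had higher values with glutamine and 4 had an unadjusted p-value below 0.05, although their summed level overlapped, at 3406 to 5497 CPM with vehicle and 3517 to 5595 CPM with glutamine. All 5 distal convoluted tubule markers and all 5 thick ascending limb markers were also higher, although the sums of both lists overlapped. The former summed to 82.5 to 130.4 CPM with vehicle and 127.6 to 228.6 CPM with glutamine. The latter summed to 1151.3 to 2103.5 CPM and 1388.0 to 2496.9 CPM. Of these markers, 3 and 2 had an unadjusted p-value below 0.05. Over all genes tested, 7.23% were higher at that p-value, and 49.4% were lower at any size. None of these markers was at 0 in all TEC libraries, and the part of tubule cell makeup in the Ggt1 and Gpx3 values was not tested.

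Chac1 (chr2:119351229-119354381, plus strand) encodes an enzyme that splits glutathione inside the cell and is a target of ATF4. Its CPM was 24.8, 28.0 and 20.9 with vehicle and 9.97, 10.9 and 21.7 with glutamine. Glutamine replicates 1 and 2 were below all vehicle libraries, whereas glutamine replicate 3 lay among them. Chac1 had a log2 fold change of -0.78 (SE 0.34, adjusted p = 0.369, edgeR). It was -1.24 without glutamine replicate 3, and it lost its unadjusted p-value below 0.05 without either of the other glutamine libraries or without vehicle replicate 3 or 4.

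The order of the members in TECs, in CPM per kilobase of transcript, was led by the peroxidases. In vehicle libraries Gpx3 stood at 10045 ± 2324, Gpx1 at 964 ± 128, the sum of Gpx4 and its copy at 718 ± 97.2 and Gclc at 326 ± 57.0 (SD, n = 3), with no overlap between neighbours. Gsr at 206 ± 46.0 and Ggt1 at 132 ± 7.99 followed, Ggt1 overlapping Gss at 101 ± 36.5, and Gclm at 48.3 ± 4.14, Chac1 at 15.0 ± 2.19 and Slc7a11 at 1.498 ± 0.486 closed the order. With glutamine, Gsr and Ggt1 changed places. Ggt1 stood at 198 ± 18.1 and Gsr at 97.3 ± 23.6 CPM per kilobase, again without overlap, so that Gsr exceeded Ggt1 in every vehicle library and Ggt1 exceeded Gsr in every glutamine library.

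Of a wider list of 23 glutathione genes, 19 were tested in TECs. None passed edgeR's quasi-likelihood test at an adjusted p-value of 0.05, and 0% of all genes tested did. DESeq2 called none of the list, where it called 1.93% of the genes for which it gave an adjusted p-value. It gave no adjusted p-value for Chac2, Gpx2 and Gpx7. At an unadjusted p-value below 0.05, 1 was lower and 2 were higher, beside 5.51% lower and 7.23% higher of all genes tested. Of the 19, 10 were below 0, beside 49.4% of all genes tested, and the median log2 fold change was -0.13, against 0.01. Chac2, a relative of Chac1 that also degrades glutathione, had 2.76, 1.43 and 2.34 CPM with vehicle and 0.480, 0.201 and 0.110 CPM with glutamine, where the last 2 values lie below the 0.603 and 0.329 CPM that 3 counts make in those libraries. Its fitted log2 fold change of -2.96 (adjusted p = 0.244, edgeR) therefore rests on a few counts. Chac2 was the gene counted above as lower, and it passed the expression filter through the vehicle group, where it is high. Its p-value and the separation of its groups therefore support no conclusion on treatment. Dpep1, the brush border dipeptidase that acts after gamma-glutamyltransferase, had 99.2, 82.6 and 126 CPM with vehicle and 121, 199 and 155 CPM with glutamine, a log2 fold change of 0.62 (adjusted p = 0.338, edgeR) with overlapping groups. Gpx6, another peroxidase, had 9.07, 12.6 and 8.56 CPM with vehicle and 25.4, 14.5 and 15.0 CPM with glutamine, a log2 fold change of 0.86 (adjusted p = 0.326, edgeR) with the groups apart.

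Selenocysteine is inserted by a dedicated set of factors, and all 6 genes listed for them had log2 fold changes below 0 in TECs, with a median of -0.17, where 49.4% of all genes tested were below 0. Only Eefsec, the elongation factor that carries the selenocysteine tRNA, had an unadjusted p-value below 0.05, as 12.7% of all genes tested had, 5.51% on the lower side. It had 19.3, 12.4 and 11.4 CPM with vehicle and 6.97, 8.64 and 5.81 CPM with glutamine, with the groups apart and a log2 fold change of -1.02 (SE 0.35, adjusted p = 0.278, edgeR).

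**Figure D3:**
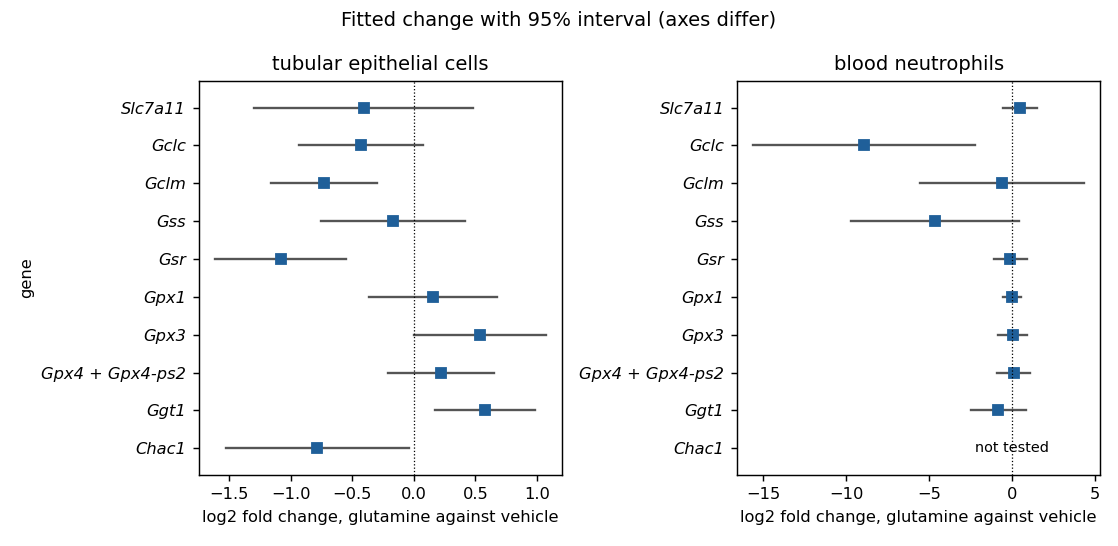
Squares give the fitted log2 fold change of glutamine against vehicle and lines its 95% interval, for TECs on the left and PMN on the right, on axes of different width. The TEC intervals of Gsr, Gclm and Chac1 lie below 0 and those of Ggt1 and Gpx3 above it, whereas the PMN interval of Gclc spans from -15.6 to -2.21 and Chac1 was not tested in PMN.

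In PMN, the peroxidases, the reductase and the cystine transporter were well expressed and showed no separation by treatment, while the genes of synthesis ranged from a handful of counts or fewer in some libraries to over 600 counts in others. Gclc and Gss had lower values in every glutamine library than in any vehicle library. No tested member of the 9 passed edgeR's quasi-likelihood test at an adjusted p-value of 0.05, and neither did any of the 10130 genes (0%). PMN libraries of 1 group differed widely, and with 3 of them per group this test has little power, so that the 0 does not show that genes were unchanged. Only Gclc had an unadjusted p-value below 0.05, where 3.42% of all genes tested had one (1.37% lower). Gclc and Gss passed the expression filter through the vehicle group, where they are high. The p-value and the separation of these genes therefore support no conclusion on treatment. DESeq2 called 1 member, Gclc, where it called 2.80% of the genes for which it gave an adjusted p-value (1.29% lower). The groups were apart for 2 members, both lower with glutamine, beside 4.63% of all genes tested, and 5.87% were apart and higher. The median log2 fold change of the 9 members was -0.10, against 0.00 over all genes tested, with 6 below 0 and 3 above.

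**Figure D4:**
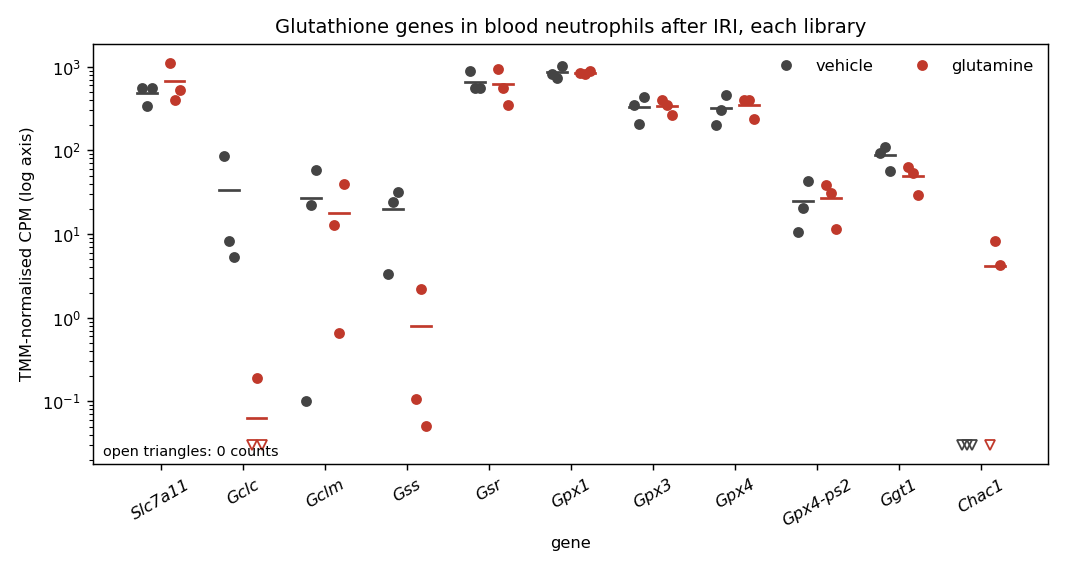
Each point is the TMM-normalised CPM, on a log axis, of a gene in 1 PMN library, with the group mean as a bar, for vehicle (grey) and glutamine (red), and open triangles mark libraries with 0 counts. Gpx1, Gsr, Slc7a11, Gpx3 and Gpx4 lie above 200 CPM in every library, while Gclc, Gclm, Gss and Chac1 scatter from 0 to 86.5 CPM.

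Gpx1 had the highest mean CPM of the members in PMN, although Gsr exceeded it in replicate 1 of both groups and Slc7a11 in glutamine replicate 1. It had 821, 729 and 1026 CPM in vehicle replicates 1, 2 and 3 and 850.0, 812 and 886 CPM in glutamine replicates 1, 2 and 3. The log2 fold change was -0.02 with a 95% interval from -0.55 to 0.52 (adjusted p = 1.0, edgeR). Gpx3 had 347, 205 and 437 CPM with vehicle and 405, 345 and 264 CPM with glutamine, at a log2 fold change of 0.04 (SE 0.38, adjusted p = 1.0, edgeR). Its sign turned under 7 of 16 alternatives, so that no direction was shown. Gpx4 had 202, 299.7 and 460.0 CPM with vehicle and 399.8, 396 and 239 CPM with glutamine, and with its copy added the log2 fold change was 0.11 (SE 0.42, adjusted p = 1.0, edgeR). The 3 peroxidases thus had overlapping groups, with intervals that reach changes of about 1 on the log2 scale for Gpx3 and Gpx4.

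Gsr had 882, 554.99 and 554 CPM with vehicle and 949.6, 562 and 347 CPM with glutamine in PMN, a log2 fold change of -0.10 with a 95% interval from -1.09 to 0.90 (adjusted p = 1.0, edgeR). The glutamine libraries held both the highest and the lowest value. Whether the effect of glutamine on Gsr differed between PMN and TECs was not tested.

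Slc7a11 had 550.9, 342 and 560 CPM with vehicle and 1105, 402 and 532 CPM with glutamine. The groups overlapped, glutamine replicate 1 was the highest library, and the log2 fold change of 0.49 (SE 0.44, adjusted p = 1.0, edgeR) turned to -0.08 without it. Slc3a2, the heavy chain that partners Slc7a11, had 460 to 683 CPM with vehicle and 530 to 755 CPM with glutamine. Ggt1 had 94.2, 111 and 56.0 CPM with vehicle and 63.2, 53.6 and 29.4 CPM with glutamine, a log2 fold change of -0.84 (SE 0.70, adjusted p = 1.0, edgeR) with overlapping groups.

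The catalytic subunit Gclc had 86.5, 8.25 and 5.33 CPM in the PMN vehicle libraries, from 1726, 181 and 112 counts. In the glutamine libraries it had 0, 4 and 0 counts, where 3 counts, the limit that a count of 0 allows, make 0.158 CPM in glutamine replicate 1 and 0.150 CPM in glutamine replicate 3. Every vehicle library was therefore above every glutamine library, and the vehicle libraries themselves differed more than 10-fold. The fitted log2 fold change of -8.91 (SE 2.82) rests on 4 counts in the glutamine group and is no bound on the change. Its adjusted p-value was 1.0 in edgeR's quasi-likelihood test and 0.00121 in DESeq2, and between 0.00121 and 1.0 over 15 alternatives. Vehicle replicate 1, with the highest Gclc, was also the library with 1076 CPM of thick ascending limb markers and 230 CPM of distal convoluted tubule markers. Vehicle replicate 2, with 8.25 CPM of Gclc against 5.33 CPM in vehicle replicate 3, was the library with 1772 CPM of endothelial markers. The log2 fold change was -6.60 without vehicle replicate 1 and -9.38 without vehicle replicate 2. Without glutamine replicate 2, which held the 4 counts, both remaining glutamine libraries were at 0 counts and no fold change is given. Col1a1, given above, and Cdh5, 1 of the 5 endothelial markers, were apart in the same direction as Gclc and Gss, Cdh5 with 16.7, 224 and 1.90 CPM with vehicle and 0.632, 0 and 0.10035 CPM with glutamine. The endothelial list as a whole overlapped, with sums of 18.3, 1772 and 2.66 CPM with vehicle and 58.9, 13.012 and 60.6 CPM with glutamine, and Pecam1 and Egfl7 in it overlapped as well. Gss was highest in vehicle replicate 3, at 32.0 CPM. In that library thick ascending limb markers summed to 4.23 CPM and endothelial markers to 2.66 CPM. The part of such RNA in Gclc and Gss was not tested.

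The modifier subunit Gclm varied as widely without following treatment. It had 0.1002, 22.3 and 58.9 CPM with vehicle and 12.8, 0.660 and 39.6 CPM with glutamine, from 2 to 1238 counts, and the log2 fold change of -0.61 had a 95% interval from -5.58 to 4.35 (adjusted p = 1.0, edgeR). Gss had 3.36, 24.4 and 32.0 CPM with vehicle and 0.105, 2.22 and 0.050 CPM with glutamine, from 67, 536 and 673 counts and from 2, 47 and 1 counts. The groups did not overlap, and the log2 fold change was -4.64 (SE 2.13, adjusted p = 1.0 in edgeR's quasi-likelihood test and 0.0975 in DESeq2). It was -7.93 without glutamine replicate 2, the library with 47 counts, and the other libraries left out in turn gave -5.14 to -4.08. Chac1 had 0 counts in the 3 vehicle libraries and in glutamine replicate 1, and 173 and 84 counts in glutamine replicates 2 and 3. The vehicle counts allow up to 0.150, 0.137 and 0.143 CPM, against 8.16 and 4.21 CPM in those 2 glutamine libraries, and the groups overlapped at 0.

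Per kilobase of transcript, the order of levels in PMN began with Gpx1 at 801 ± 141 CPM in the vehicle libraries, followed by the sum of Gpx4 and its copy at 360.2 ± 153, Gsr at 248 ± 70.8 and Gpx3 at 207 ± 73.4 (SD, n = 3). The last 3 overlapped their neighbours. Slc7a11 at 52.5 ± 13.4 and Ggt1 at 40.2 ± 12.96 overlapped as well, and Gss, Gclc and Gclm lay at 10.2 ± 7.57, 9.75 ± 13.5 and 4.85 ± 5.31 CPM per kilobase with no order that holds across libraries. With glutamine the means of the first 6 kept this order, at 792 ± 34.5, 387 ± 110, 232 ± 114, 212 ± 44.4, 73.7 ± 40.5 and 22.5 ± 8.05 CPM per kilobase. Gsr exceeded Gpx3 per kilobase in just 1 of 3 glutamine libraries. Slc7a11, last of the 10 in TECs, was thus the fifth member in PMN, and Gpx3, first in TECs, was the fourth. These are ranks within separately normalised tables and were not tested across them.

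Of the wider list of 23 genes, 10 were tested in PMN, 8 of them below 0, where 50% of all genes tested were, with a median log2 fold change of -1.07 against 0.00. None passed edgeR's quasi-likelihood test at an adjusted p-value of 0.05, and 0% of all genes tested did. DESeq2 called none of them, where it called 2.80% of the genes for which it gave an adjusted p-value. It gave no adjusted p-value for Oplah. None had an unadjusted p-value below 0.05 in edgeR, as 3.42% of all genes tested had. Oplah, the oxoprolinase that returns glutamate to the cycle, had 0, 10.4 and 0 CPM with vehicle and 1.16, 0.707 and 0.853 CPM with glutamine. Hagh, the glyoxalase that releases glutathione from its lactoyl conjugate, had 81.0, 132 and 38.8 CPM with vehicle and 40.4, 28.1 and 0 CPM with glutamine. Both had overlapping groups, at fitted log2 fold changes of -1.94 and -1.88. Of the 6 selenocysteine genes 5 were tested, 2 below and 3 above 0, with none at an unadjusted p-value below 0.05. Pstk, the kinase of the selenocysteine tRNA, had 0, 28.2 and 21.03 CPM with vehicle and 0, 0.330 and 0.803 CPM with glutamine, and Eefsec had 57.9, 0 and 0.619 CPM with vehicle and 28.3, 0 and 0.050 CPM with glutamine. Neither followed treatment in every library.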

How the data were processed

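Reads of 50 bases, single end, were made from polyA RNA. Per the submitters' processing notes, Trim Galore 0.6.4, Salmon 1.0.0, DESeq2 and mm10 were used, with FastQC and MultiQC, and the authors deposited unnormalized gene-level tables of estimated counts. Extra points stood in 3.2% of the cells for PMN, and 0.39% of the cells had become dates. Both were decoded, and the 2 columns of a PMN library were averaged as 1 replicate. What the 2 columns stand for is not given in the sources used here, and the decoding was not checked against an unaltered copy. Either column alone gave a Gclc log2 fold change of -9.28 or -8.90. Counts were rounded, scaled by TMM, filtered with filterByExpr and tested in edgeR 4.0.16 (R 4.3.3) separately for each cell type, with DESeq2 1.42.0 and limma 3.58.1 as alternatives. Positions and lengths came from GENCODE M21, matched by symbol. The members and lists were chosen with earlier results of these data known. Named genes were all members and, from the wider and selenocysteine lists, those with an unadjusted p-value below 0.05. Where a list had none, the 2 with the largest log2 fold change were named. Markers of sort and cell identity and abundant genes of marker lists were named as well. Slc3a2 and the markers Slc34a1, Havcr1, Cd79b, Col1a1, Cdh5, Pecam1, Egfl7 and, in TECs, Lyz2 were chosen after their values were seen. P-values measure the spread between libraries. Exact permutation of 3 against 3 libraries reaches p = 0.1 at the lowest and was not run.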

Additional observations from a re-analysis of the deposited data

How the results depend on the processing

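No paired analysis was possible because just replicate number 3 occurs in both TEC groups and the labels of PMN give no numbers. In TECs the number of members with an adjusted p-value below 0.05 went from 0 to 2 with DESeq2 and to 1 without an expression filter, and the number at an unadjusted p-value below 0.05 went from 5 to between 3 and 6 when 1 library was left out (3 without vehicle replicate 3 or 4 or glutamine replicate 1 or 2), while the share of all genes tested went from 12.7% to between 8.26% without vehicle replicate 4 and 17.7% without vehicle replicate 5. In PMN the former went from 0 to 1 with DESeq2. The latter went from 1 to 3 with DESeq2 (Gclc, Gss and Chac1), 2 with limma-voom (Gclc and Gss) and 2 without a filter (Gclc and Chac1). It went to 0 with at least 10 counts in every library, which removes Gclc, and to 1 or 2 with 1 library left out. The 2 came without glutamine replicate 2 and without glutamine replicate 1, which lets Chac1 pass the filter. Chac1 passes there only through the glutamine group, where it is high, so that its p-value supports no conclusion. Of all genes tested, 3.42% became 7.87%, 6.44%, 4.4% and 5.2% with DESeq2, limma-voom, no filter and at least 10 counts in every library. The share was 4.0% to 4.71% with 1 library left out. Of 140 member values in TECs 5 changed sign and of 141 in PMN 16 did. These values include the setting that summed Gpx4 with its copy, which could hardly move the other members. In TECs, scaling by library totals alone moved the median of all genes to -0.16 and turned Gpx1 to -0.011 and Gpx4 to -0.069. DESeq2 and the unfiltered fit, which hold more genes, moved that median to 0.17 and 0.14. In PMN, limma-voom turned Gclm to 0.29, and Gpx3 became -0.028 with DESeq2, -0.020 with RLE scaling, -0.016 with library totals and -0.014 with at least 10 counts in every library. With 1 library left out, the log2 fold change ranged in TECs from -0.38 to 0.15 for Gss, -0.02 to 0.36 for Gpx1 and -0.32 to 0.28 for Gpx4, and in PMN from -7.93 to -4.08 for Gss, -2.04 to 0.66 for Gclm, -0.56 to 0.18 for Gsr, -0.078 to 0.717 for Slc7a11, -0.13 to 0.12 for Gpx1, -0.22 to 0.28 for Gpx3 and -0.16 to 0.45 for Gpx4. The cause of these changes was not tested. Over all genes, 0 calls became 246 in TECs and 309 in PMN with DESeq2, 425 in TECs without a filter, and 36 in TECs without glutamine replicate 2 and 4 without vehicle replicate 5. Few counts limit the Gpx4 row, Slc7a11 and Chac2 in TECs and Gclc and Gss with glutamine in PMN, where the spread between libraries limits Gclc, Gclm and Gss as well.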
